A study of Mus musculus with 2 samples.

Results

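Lung fluid is moved by a small set of ion channels and pumps, and 9 of their genes are described here in airway epithelium cut from lungs of mouse fetuses: Scnn1a, Scnn1b, Scnn1g, Cftr, Slc12a2, Atp1b1, Fxyd3, Clcn2 and Nedd4l. They were chosen by name, as the genes of chloride secretion and sodium absorption before birth, with earlier results of these data known. Their probes are those whose gene name in the array files is a current or former symbol of these genes. All 9 were on the array, among 17244 named genes that gave a ratio, and they were covered by 13 probes. No former symbol was needed, and a former symbol of Atp1b1 that now belongs to another gene was not used.

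The study compared wild-type male CD-1 fetuses at E14.5 and E18.5 (E, embryonic day); CD-1 is an outbred mouse strain, and no transgene or treatment is named. The lining of the intralobular airways was taken by laser from stained frozen sections, and the pieces of 1 whole lung per age were pooled. RNA of each age was amplified in 1 round, that of E14.5 carried the green dye Cy3 and that of E18.5 the red dye Cy5, and both were hybridised to the same array of 60-base probes. There was 1 sample per age and no dye swap, so age, animal and dye cannot be told apart, and no difference below has a replicate error or a p-value.

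The fetal lung fills itself with liquid: Slc12a2, the sodium-potassium-chloride cotransporter of the basolateral membrane, loads the cell with chloride, which leaves through apical channels such as Cftr, and sodium and water follow. Around birth the epithelium turns to absorption, in which sodium enters through the epithelial sodium channel ENaC (subunits alpha, beta and gamma, from Scnn1a, Scnn1b and Scnn1g) and is pumped out by the sodium pump, whose beta 1 subunit is Atp1b1. The ubiquitin ligase Nedd4l removes ENaC from the membrane, Fxyd3 is a small regulator of the pump, and Clcn2 is a second chloride channel of fetal lung epithelium.

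Both samples carried epithelial RNA, and RNA of other cell types as well. All 8 epithelial markers were well above background at both ages, with log2 ratios (E18.5 over E14.5) from −1.17 for Cldn4 to 1.59 for Krt18, a median of 0.49 and a summed normalized intensity of 307810 at E14.5 and 501181 at E18.5. Summed marker intensity went from 6085 to 988152 for club cells (4 of 4 markers at least 2-fold higher at E18.5), from 24368 to 161824 for ciliated cells (5 of 5) and from 42041 to 264734 for alveolar type II cells (6 of 6). It went from 16778 to 64630.5 for alveolar type I cells (3 of 5 higher), from 13883 to 101072 for endothelium (3 of 6), and from 4303 to 161491 for leukocytes (6 of 7). A single bright marker carried much of some sums. Without Lyz2 the leukocyte sum went from 2534 to 14576, and without Kdr the endothelial sum from 9792.5 to 29403, an alternative chosen after the values were seen. The median log2 ratio was 3.21 over the leukocyte markers, 1.20 over the endothelial, 3.29 over the type II and 1.97 over the type I markers. For mesenchyme and smooth muscle the sum went from 433995 to 324523 (0 of 8 higher, 3 lower), and for red cells from 40339 to 9219 (1 of 5 higher, 3 lower). Foxi1, the transcription factor that defines ionocytes, a rare airway cell rich in Cftr, was not well above background at either age, and Ascl3, another ionocyte factor, had a normalized intensity of 119 at E14.5 and 172 at E18.5. Of the 4 ionocyte markers that gave a value, 1 was at least 2-fold higher, Atp6v1c2, a proton pump subunit (log2 ratio 3.90). The part of these cell types in the results below was not tested.

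A gene was counted as higher or lower when its normalized signal differed at least 2-fold between the ages, a log2 ratio of 1 or more in size. By this measure 6 of the 9 had the higher signal at E18.5 (Scnn1a, Atp1b1, Scnn1b, Scnn1g, Nedd4l and Slc12a2), 2 had the lower signal (Cftr and Clcn2) and 1, Fxyd3, lay within 2-fold. The same size was reached by 17.3% of all 17244 genes on the higher side and by 10.1% on the lower side, and the median log2 ratio was 0.06; over the 9 genes the median was 1.24. Every gene of the sodium route other than Fxyd3 was thus on the higher side, and so was Slc12a2 of the chloride route. The 2 chloride channels were on the lower side, Clcn2 by its brighter probe only (log2 ratio −0.30 by its second probe). In a bulk sample such as this, fewer cells of a type and less RNA per cell cannot be told apart. Because the 9 genes were chosen with earlier results of these data known, the shares beside all genes are a description.

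**Figure D1:**
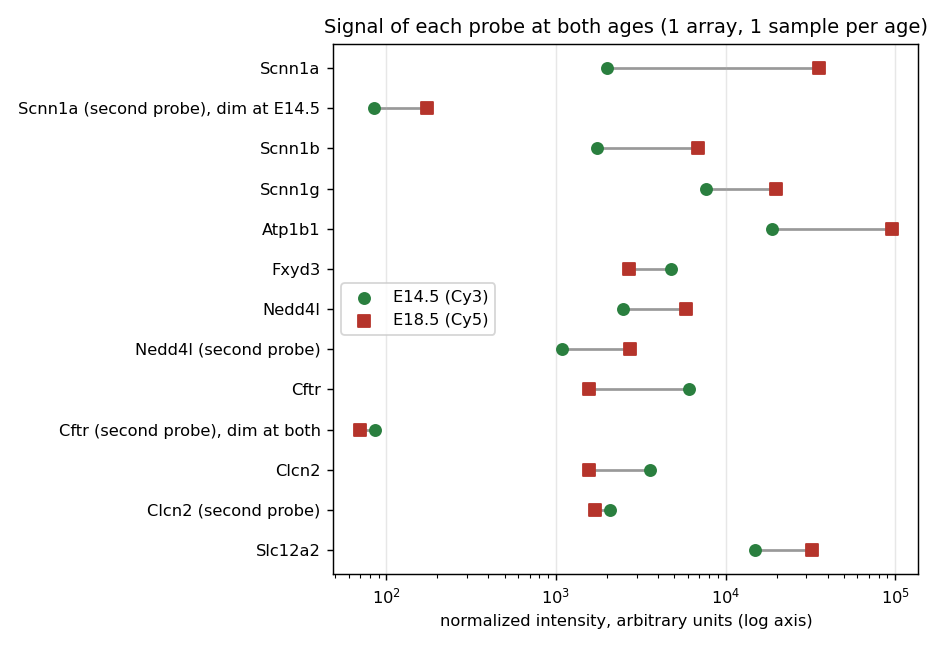
Normalized intensity (arbitrary units, log axis) of each of the 13 probes at E14.5 (green circles) and E18.5 (red squares), 1 sample per age. Scnn1a shows the widest gap, from 2003 to 35683, and Cftr and Clcn2 run the other way; probes called dim were not well above background at the age given.

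Both ages were well above background on 11 of the 13 probes, E18.5 alone on 1 and neither age on 1. Intensities of different probes are not compared with each other, since each oligonucleotide binds with its own strength. For 4 genes a second probe existed, and in 2 of them, Scnn1a and Cftr, that probe was dim. The sequences of both dim probes follow with that of Fxyd3, the gene that rests on 1 probe laid across a gap in the genome. They show what the array read for these genes, 5′ to 3′, as the array files give them, with coordinates on mouse build mm8.

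Scnn1a second probe, chr6:125308673-125308877: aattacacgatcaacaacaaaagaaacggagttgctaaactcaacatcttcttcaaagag
Cftr second probe, chr6:18217739-18217798: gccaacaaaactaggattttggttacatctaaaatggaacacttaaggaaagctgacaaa
Fxyd3 probe, chr7:30780106-30780955: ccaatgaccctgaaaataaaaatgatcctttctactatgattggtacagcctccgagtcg

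The 60 bases of the Scnn1a probe are spread over 205 bases of genome and those of the Fxyd3 probe over 850, so both cross a gap, as a probe does that joins exons. GC content was 35.0% in the Scnn1a and Cftr probes and 41.7% in the Fxyd3 probe. An annotation of mm8 (exon, intron or UTR) was not used here.

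The ENaC subunits were higher at E18.5 by unequal amounts, the alpha subunit most. Scnn1a, whose product is the pore-forming subunit that the channel needs to conduct, had a normalized intensity of 2003 at E14.5 and 35683 at E18.5 by its brighter probe (chr6:125310444-125310503). The log2 ratio was 4.15, a 17.8-fold difference, and 99.0% of genes had a lower ratio. Such percentages, here and below, count every entry with a ratio, also those outside the 17244 named genes. Its second probe, 1771 bases away by start position and printed above, read 84.3 at E14.5, where it was not well above background, and 174 at E18.5. That gives a bound of at least 2.06-fold higher (log2 1.04). With E14.5 at background, no size can be read from this probe: its log2 ratio was 1.90 without the offset of 50 that was added to damp dim signals and 4.36 in the scanner software's ratio. The value for Scnn1a therefore rests on the brighter probe (4.06 in the scanner software's ratio). The median of both probes came to 2.60, but it takes in the bound and is not an estimate of size.

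Scnn1b, the beta subunit, read 1749 at E14.5 and 6876 at E18.5 from 1 probe (chr7:121709218-121709277). Its log2 ratio was 1.97, a 3.93-fold difference, above that of 94.0% of genes. Scnn1g, the gamma subunit, read 7656 and 19930 from 1 probe (chr7:121559068-121559127). Its log2 ratio was 1.38, 2.60-fold, above that of 89.6% of genes. Scnn1b and Scnn1g lie beside each other on chromosome 7, and their probes start 150150 bases apart. All 3 subunits kept the same order, alpha over beta over gamma, under each of the 9 other ways of processing tried. These ways reread the same probes on 1 array, so the order was not replicated. For scale, the log2 ratios of different probes for 1 gene had an SD of 0.33 at the median of 7446 genes, and the beta and gamma subunits differed by less than 1 in log2 ratio.

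The sodium pump genes did not move as a block. Atp1b1, which carries the pump to the basolateral membrane, had a normalized intensity of 18797 at E14.5 and 95655 at E18.5 (chr1:166274807-166274866). The log2 ratio was 2.35, a 5.09-fold difference, above that of 95.5% of genes. Fxyd3 read 4800 at E14.5 and 2692 at E18.5. Its log2 ratio of −0.83 was 1.78-fold lower at E18.5 and did not reach 2-fold, and 12.4% of genes had a lower ratio.

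Nedd4l, the ligase that tags ENaC for removal, was higher at E18.5 along with the channel. Its 2 probes, both on chromosome 18, read 2475 and 1084 at E14.5 and 5850 and 2751 at E18.5. Their log2 ratios were 1.24 (2.36-fold) and 1.34 (2.54-fold). These probes were the closest pair among the genes with a second probe, with an SD between them of 0.07.

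The chloride channels were lower at E18.5, Clcn2 by at least 2-fold on 1 probe only, while the cotransporter that supplies chloride was higher. Cftr, the cyclic AMP-regulated chloride channel that is lost in cystic fibrosis, was the most often measured of the 9 genes, because its main probe (chr6:18272483-18272542) was spotted 10 times. The scanner software set 1 of these spots aside as an outlier. Over the other 9 spots the normalized intensity at E14.5 ran from 5245 to 6533 with a median of 6210. At E18.5 it ran from 1326 to 1700 with a median of 1607, so the ages did not overlap on any spot. The log2 ratio was −1.97 ± 0.02 (SD over 9 spots, technical), from −1.99 to −1.94, a signal 3.91-fold lower at E18.5, and the spot set aside gave −1.91. This spread covers spotting and scanning on 1 array, not animals, dissections or amplifications. Only 1.97% of genes had a lower ratio. The second Cftr probe, printed above, lies 54744 bases upstream in the genome and read 86.0 and 69.8, not well above background at either age, so it gives no ratio.

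Clcn2 read 3577 at E14.5 and 1566 at E18.5 by the brighter of its probes (chr16:20616720-20616779). The log2 ratio was −1.19, 2.28-fold lower. Its second probe starts 121 bases away (chr16:20616599-20616659) and read 2092 and 1705, a log2 ratio of −0.30. The median of both was −0.74, so the call of at least 2-fold lower rests on 1 of the 2 probes. Slc12a2 was bright at both ages, with 14974 at E14.5 and 32557 at E18.5 from 1 probe on chromosome 18. The log2 ratio was 1.12, 2.17-fold, above that of 86.6% of genes and the nearest of the higher genes to the 2-fold line.

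**Figure D2:**
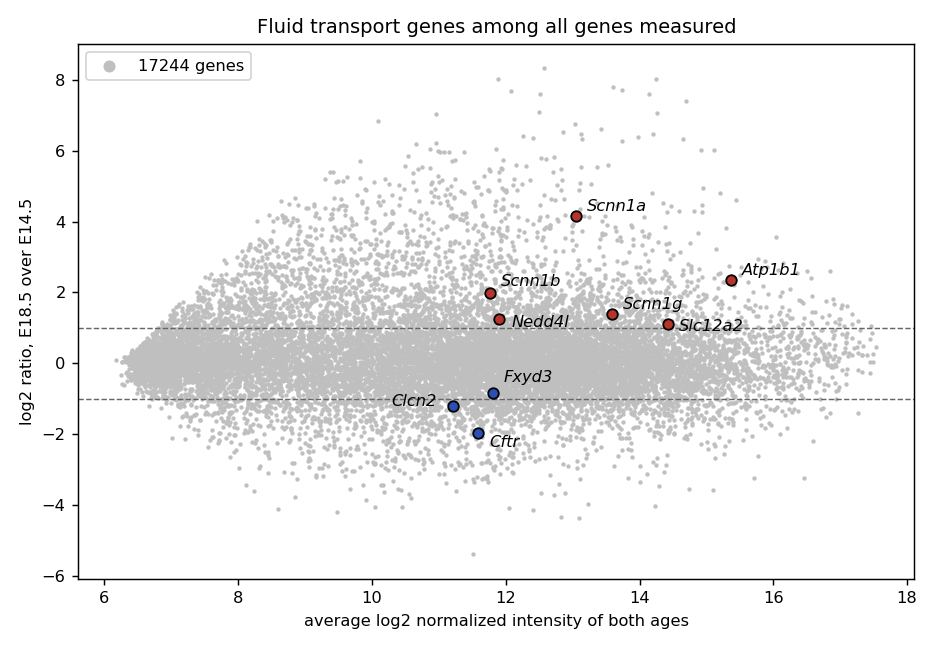
Log2 ratio (E18.5 over E14.5, vertical) against average log2 normalized intensity (horizontal) for 17244 genes in grey and the 9 fluid transport genes as labelled points, red above 0 and blue below; dashed lines mark 2-fold. Scnn1a at 4.15 stands highest of the 9 and Cftr at −1.97 lowest.

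Set against genes of like brightness, within 0.25 of the same average log2 intensity, the 9 genes met a similar background. Around Cftr, 13.4% of 1152 genes were at least 2-fold lower. Around Scnn1a, a 2-fold higher signal was seen for 16.6% of 1083 genes, and around Atp1b1 for 13.0% of 299 genes. The median log2 ratio in these windows lay between −0.07 (Atp1b1) and 0.08 (Clcn2). Scnn1a, Atp1b1 and Scnn1b lay above the highest of the 8 epithelial markers (Krt18, 1.59), and Cftr lay below the lowest (Cldn4, −1.17). Clcn2 at −1.19 by its brighter probe lay level with Cldn4, and the other 4 genes lay within the span of these markers. By its second probe Clcn2 was at −0.30, within that span. Among the markers, Krt8 was at 0.75 by the probe used and at 1.88 by its other probe, above Krt18 and below Scnn1b (1.97).

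The distance between the absorptive and secretory genes can be given as a difference of log2 ratios, each gene against its own level at E14.5. The log2 ratio of Scnn1a exceeded that of Cftr by 6.12, so that the signal of Scnn1a relative to Cftr was 69.7-fold higher at E18.5 than at E14.5. With the median of both Scnn1a probes, which takes in the bound of the second probe, the difference was 4.57, or 23.7-fold. For Atp1b1 the difference was 4.31 (19.9-fold), for Scnn1b 3.94 (15.4-fold), for Scnn1g 3.35 (10.2-fold) and for Nedd4l 3.21 (9.25-fold). Slc12a2, which serves the same secretory route as Cftr, was 3.09 above it (8.50-fold). Clcn2 was 0.78 above Cftr (1.71-fold) by its brighter probe and 1.22 above it (2.34-fold) by the median of its probes, and Fxyd3 was 1.13 above it (2.19-fold), so the order of Clcn2 and Fxyd3 depends on the probe. These are unequal changes within 1 array and carry no replicate error.

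With only 2 samples, likeness of pattern means a like signal at both ages, and since this sets the brightness of different probes side by side it describes array signal and not RNA level. The nearest other gene to Scnn1a was Adam8 (log2 ratio 4.14, distance 0.02 in the plane of the 2 log2 signals), and that to Scnn1b was Traf3ip2 (2.01, distance 0.03). Nearest to Scnn1g was Notch2 (1.37, distance 0.03), and nearest to Cftr was Ccnjl (−1.99, distance 0.03). Within a distance of 0.1 there were 1, 4, 7 and 3 other genes.

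The promoters of 6 of the 9 genes were in the RefSeq table used here (build GRCm38.p6). No promoter was listed for Scnn1a, Slc12a2 or Nedd4l, so these genes were not searched. The promoters of Scnn1b and Scnn1g, neighbours that were both higher, and of Cftr, which was lower, are shown 5′ to 3′. Each is given as the 250 bases before the annotated start. Capitals mark the letters of the GC box, GGGCGG on either strand.

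Scnn1b, chr7:121864788-121865037, plus strand: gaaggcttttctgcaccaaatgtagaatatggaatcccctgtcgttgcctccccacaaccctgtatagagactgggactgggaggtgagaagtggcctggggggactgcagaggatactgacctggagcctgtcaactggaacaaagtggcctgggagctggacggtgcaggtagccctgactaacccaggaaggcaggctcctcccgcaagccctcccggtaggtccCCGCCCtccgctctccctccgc
Scnn1g, chr7:121734229-121734478, plus strand: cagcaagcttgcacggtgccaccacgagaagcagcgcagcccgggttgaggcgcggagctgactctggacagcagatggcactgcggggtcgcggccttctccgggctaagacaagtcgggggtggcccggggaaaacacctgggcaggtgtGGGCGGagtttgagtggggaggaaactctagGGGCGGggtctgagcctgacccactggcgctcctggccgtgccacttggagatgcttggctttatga
Cftr, chr6:18170437-18170686, plus strand: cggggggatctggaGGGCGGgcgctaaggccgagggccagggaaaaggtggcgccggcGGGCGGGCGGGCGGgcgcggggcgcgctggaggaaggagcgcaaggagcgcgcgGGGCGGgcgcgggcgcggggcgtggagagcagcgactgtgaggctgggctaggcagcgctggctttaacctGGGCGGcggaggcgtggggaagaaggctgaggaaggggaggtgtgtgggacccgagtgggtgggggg

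GC content was 76.4% in the Cftr window, 65.2% in that of Scnn1g and 60.8% in that of Scnn1b, beside a median of 52.4% over 32851 promoters. The GC box letters occurred 6 times for Cftr, 3 of them overlapping in 1 run, 2 times for Scnn1g and 1 time for Scnn1b. They were present in 5 of the 6 promoters, those of Atp1b1, Cftr, Clcn2, Scnn1b and Scnn1g, and in 32.7% of all promoters. The letters of the CCAAT box, CCAAT on either strand, were found for Atp1b1, Clcn2 and Fxyd3 and in 33.9% of all promoters. Those of the TATA box (TATAAA) and of the glucocorticoid receptor half-site (AGAACA), both strands, were in 0 of the 6 windows and in 12.4% and 16.1% of all. A match is a description of letters in this window only.

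The wider machinery of fluid transport was read from 6 lists of other genes by role, 108 genes of which 102 gave a value. Of these, 29 reached 2-fold on the higher side (28.4%, beside 17.3% of all genes) and 7 on the lower side (6.86%, beside 10.1%). The other 66 lay within 2-fold, and the median log2 ratio was 0.19. The lists, too, were chosen with earlier results of these data known, so these shares are a description only. The named genes are drawn from the 3 farthest from 0 in each list among those measured at both ages, together with those marked as chosen after their values were seen.

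Among 11 other pump subunits and FXYD proteins, 2 were higher, 1 lower and 8 within 2-fold. Fxyd4 (log2 ratio 2.31, 331 at E14.5 to 1638 at E18.5) and Fxyd5 (1.38) encode pump regulators of the family of Fxyd3, and so does Fxyd6, the lower one (−1.18, other probe −0.93).

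Of 24 other chloride and bicarbonate routes, 7 were higher and 2 lower, the other 15 lay within 2-fold, and the median was 0.25. Slc26a9, an epithelial chloride transporter, was at 2.56 (199 to 1175), the bestrophin Best1 at 2.47 (other probe 0.41), and Clic6 at 2.44 (13456 to 72826, other probe 1.94). The 2 lower genes, named after their values were seen, were Clcn6 (−1.09, other probe −0.42), an intracellular chloride transporter, and the anion exchanger Slc26a6 (−1.06, other probe −0.95).

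Potassium channels, which let potassium taken up by the pump and the cotransporter leave the cell, had the largest share of higher genes of the 6 lists: 7 of 12 were higher and 1 lower, 4 lay within 2-fold, and the median was 1.26. Kcnj15 was at 3.37 by its brightest probe and at 0.10 and 0.63 by the others. Kcnq1, a basolateral potassium channel of chloride-secreting epithelia, was at 2.82 (1420 to 10018), and Kcne2, an accessory subunit that can pair with it, at 2.72 (461 to 3042). The lower gene, Kcnma1 (−1.12), was named after its value was seen and read 189 at E14.5 and 87.1 at E18.5, so its fold changes with how background is removed: −2.65 in the scanner software's ratio.

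Of 16 other cation carriers and channels, 4 were higher, 0 lower and 12 within 2-fold. Slc34a2, the sodium-phosphate cotransporter that also marks alveolar type II cells, was at 5.70 (125 to 6511, other probe 2.38). Cnga2, a cyclic nucleotide-gated cation channel, was at 3.25 (199 to 1883), and the sodium-glucose cotransporter Slc5a1 at 2.32 (114 to 566, other probe 1.94). Slc34a2 and Slc5a1 were close to background at E14.5, so the size of their folds changes with how background is removed: 6.90 and 3.40 in the scanner software's ratio.

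Among 11 proteases that cut and open ENaC and their inhibitors, 3 were higher, 0 lower and 8 within 2-fold. The membrane serine proteases Tmprss4 and Tmprss2 were at 2.24 (1826 to 8623) and 1.51 (other probe 2.09). Prss8, the channel-activating protease prostasin, chosen after its value was seen, was at −0.07, with 15045 and 14324.

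Of 28 regulators, 6 were higher and 3 lower, 19 lay within 2-fold, and the median was −0.04. Hsd11b1, which makes active glucocorticoid, was at 5.17 (354 to 12777), and Usp2, a deubiquitinase, at 2.22 (1326 to 6159, other probe 1.24). Chosen after their values were seen, Sgk1, the steroid-induced kinase that restrains Nedd4l, was at 1.61 (1763 to 5386), and the glucocorticoid receptor Nr3c1 at 0.35. The ligase Nedd4, the relative of Nedd4l, was at −0.59, with other probes at 0.21 and 0.40. The 3 lower genes, also named after their values were seen, were Stx1a (−1.31), Usp10 (−1.12) and Sfn (−1.02, other probes 0.19 and 0.63).

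**Figure D3:**
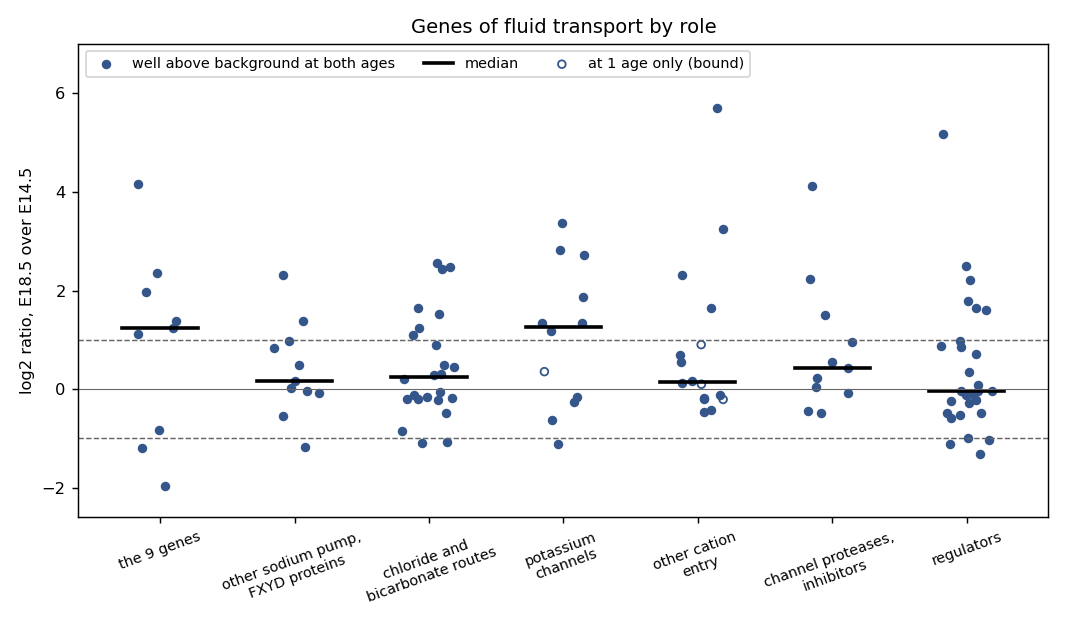
Log2 ratio (E18.5 over E14.5) of every gene with a value among the 9 genes and the 6 lists of other fluid transport genes; each point is 1 gene, open points are bounds from genes well above background at 1 age only, black bars are list medians and dashed lines mark 2-fold. The potassium channels and the 9 genes have medians of 1.26 and 1.24, and the other lists lie between −0.04 and 0.43.

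The direction of each of the 9 genes was the same under the 9 other ways of processing, and 80 of 81 gene values stayed on the same side of the 2-fold line. Many of these values could hardly differ. Requiring both channels well above background, or using no filter on dim probes, left all 9 values as they were. The value table gave the same values as the scanner software's ratio. All ways reread the same array, so this sameness stands in for no replicate. Cftr ranged from −2.17 to −1.91, Scnn1b from 1.88 to 2.04, Scnn1g from 1.27 to 1.55 and Atp1b1 from 2.30 to 2.72. Slc12a2 ranged from 1.06 to 1.38, Nedd4l from 1.13 to 1.31 and Fxyd3 from −0.99 to −0.77. Wider ranges belonged to Scnn1a (2.60 to 4.28), whose second probe gives only a bound, and to Clcn2 (−1.40 to −0.74), whose probes disagreed.

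**Figure D4:**
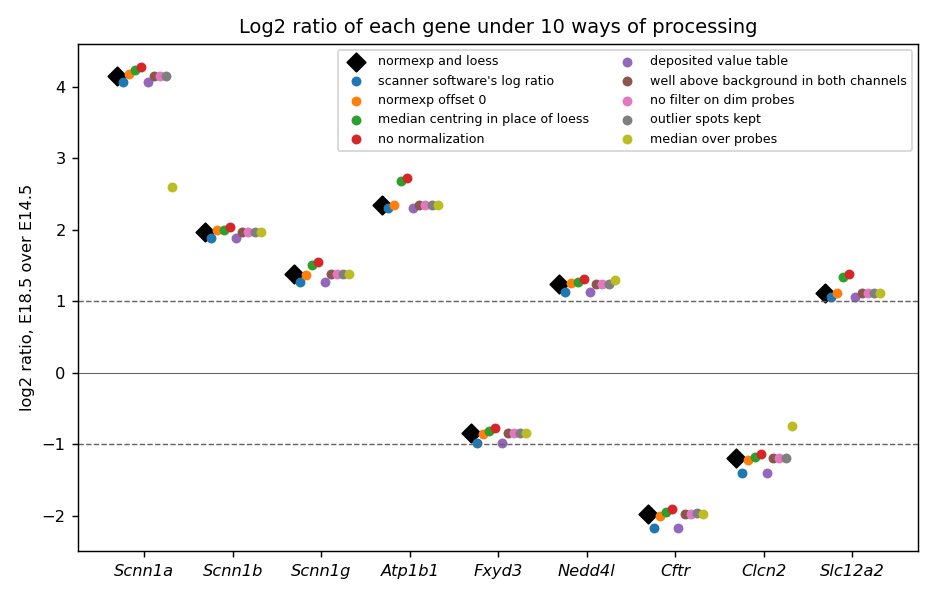
Log2 ratio (E18.5 over E14.5) of each of the 9 genes under 10 ways of processing; black diamonds are the reported values, coloured points the 9 alternatives, and dashed lines mark 2-fold. Only the median over probes moves Scnn1a (to 2.60) and Clcn2 (to −0.74) far from the rest.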

How the data were processed

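The 2 deposited scanner tables, made by the authors with Agilent Feature Extraction 9.5.3.1 per the submitters' processing notes, were identical in 115 of 115 columns and were read as 1 array. They hold, per the file headers, linear mean and local background intensities for each spot, processed intensities, a log10 ratio of red over green, and other values that are flags of 0 or 1. The deposited value table holds linear intensities, 0.339 times the processed intensity of each sample's channel with a floor of 15 (medians 129 at E14.5 and 130.2 at E18.5), so its scale and direction are known and it was not centred.

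Mean intensities were corrected with normexp (offset 50) and normalized by loess (span 0.3, 4 iterations, limma 3.58.1, R 4.3.3), tested on simulated data. Few probes were changed in the simulated data, so that test does not cover the share of changed genes seen here. Loess would hide a shift shared by most genes. Control spots and 160 outlier spots were left out of 45018 spots. No probe spot was saturated (0 spots); of 41170 probes, the green channel (E14.5) was well above background on 75.2% and the red (E18.5) on 78.7%. A gene is represented by its probe with the highest average intensity among those well above background at 1 age or more, and repeated spots were averaged, with a median SD of 0.05 over 245 probes. A ratio with 1 dim channel is a bound, open to dye bias. Names were updated through RefSeq (GRCm38.p6; 24372 probes by accession, 6301 by symbol and 2426 by older symbol). The 9 genes and the lists were chosen with earlier results of these data known. Named list genes follow the rule given with the lists, and some genes that it names are not reported here. With 1 sample per age, no test was run. Python 3.11.15, numpy 2.4.6, pandas 2.3.3 and matplotlib 3.10.9 were used.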

Additional observations from a re-analysis of the deposited data

How the results depend on the processing

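With the median over all probes in place of the brightest, Clcn2 came to −0.74, within 2-fold, and the count of lower genes among the 9 fell to 1. No other value of the 9 genes crossed the 2-fold line. The median of all genes moved from 0.06 to −0.05 with the scanner software's ratio, −0.02 with the value table, 0.13 with median centring and 0.17 without normalization; relative to these shifts Scnn1g ranged from 1.30 to 1.38 and Slc12a2 from 1.04 to 1.21. Of 126 counts, 14 moved by over 1.5 times, all small: the higher pump genes came to 4 with median centring and with no normalization, and the lower ones to 2 with the scanner software's ratio and the value table and 0 with no normalization. Lower chloride routes came to 1 with median centring, no normalization and the median over probes; lower potassium channels to 2 with the scanner software's ratio and the value table; lower cation carriers to 1 with the scanner software's ratio; and lower regulators to 1 with median centring and no normalization. The cause was not tested. With the scanner software's ratio, 2634 of all genes were lower, over 1.5 times the main count of 1738. Leaving out a sample was not possible with 1 per age. No paired analysis was possible because each age has 1 sample. The number of arrays, 1, limits the precision.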
